A study of Mus musculus with 20 samples.

Results

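The levels of 10 genes of the glutathione S-transferase (GST) superfamily were followed across the livers of 20 mice: Gsta2, Gsta3 and Gsta4 of the alpha class, Gstm1, Gstm2 and Gstm3 of the mu class, Gstp1 and Gstp2 of the pi class, and Gstt1 and Gstt3 of the theta class. They were taken by gene symbol as 10 of the 25444 loci in the deposited tables, and all 10 were among the 13704 genes that passed the filter on low counts and were tested. The livers came from 20-week-old mice of the inbred strains C57BL/6N (B6) and C3H/HeN (C3), with 5 females (F) and 5 males (M) of each strain, giving the groups B6 F, B6 M, C3 F and C3 M. No mouse carried an engineered allele or was dosed with an agent, all were housed singly and changed to the same new diet shortly before collection, and RNA was taken from the left lateral lobe of each animal. The 2 sexes had rooms of their own, which means that an effect of the room cannot be told apart from one of sex.

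GST enzymes join glutathione, the main small thiol of the cell, to electrophilic compounds such as epoxides, quinones and lipid peroxidation products, which makes them more soluble and marks them for export. The liver is rich in the cytosolic enzymes of the alpha, mu, pi and theta classes, which work as dimers, and it meets most drugs and dietary toxicants first. Alpha enzymes also reduce lipid hydroperoxides, Gsta4 is known for clearing 4-hydroxynonenal, mouse Gsta3 is known for conjugating the epoxide of aflatoxin, and theta enzymes act on small halogenated compounds.

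Each library held between 27370921 and 46835745 counts, and the expression of Xist and Ddx3y matched the labelled sex in all 20 livers. The libraries were sequenced in 3 pools of 8, 5 and 7 livers, with each group having mice in every pool. Pool 3 stood apart: 14.6% of the 13704 genes differed between pool 3 and the mean of pools 1 and 2 at the thresholds used here, against 1.16% between pools 2 and 1. All 5 hepatocyte markers were detected, and their summed level ranged from 80079 to 121932 CPM (counts scaled to library size) in B6 and from 118003 to 159347 CPM in C3. In whole liver, fewer cells of a type and less RNA per cell cannot be told apart.

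The genes lie in family clusters. In mm9 coordinates, Gstp1 (gene ID 14870) lies on chromosome 19 from 4035411 to 4037912 and Gstp2 (14869) from 4040288 to 4042221, both on the minus strand and 2375 bases apart. Gstt3 (103140) lies on chromosome 10 from 75236867 to 75244159, with Gstt1 (14871) 2398 bases beyond it, from 75246558 to 75261329. Gstm3 (14864), Gstm2 (14863) and Gstm1 (14862) follow each other between 107766614 and 107820891 on chromosome 3. Gsta4 (14860) and Gsta2 (14858) lie on chromosome 9, from 78039773 to 78057156 and from 78178827 to 78194952, and Gsta3 (14859) alone on chromosome 1, from 21230666 to 21255656. No member overlapped another gene of the tables.

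The pi genes are near-copies, which bears on how far their reads can be told apart. Over 738 aligned bases of their longest coding transcripts (GENCODE M1, mm9), Gstp1 and Gstp2 were 97.02% identical with 22 mismatches, and 51.67% of the 125-base windows of Gstp1, the length of 1 read, occurred unchanged in Gstp2. The start site regions have diverged further, with 86.17% identity over 282 aligned bases. They are shown because Gstp1 had the largest sex difference of the 10 in both strains and Gstp2 was called with it, and because both carry the letters TGAGTCA, the classical AP-1 site, in capitals here. The sequences are from RefSeq (GRCm38.p6), 5′ to 3′ on the minus strand, for chr19:4037863-4038162 (Gstp1) and chr19:4042172-4042471 (Gstp2).
Gstp1 promoter: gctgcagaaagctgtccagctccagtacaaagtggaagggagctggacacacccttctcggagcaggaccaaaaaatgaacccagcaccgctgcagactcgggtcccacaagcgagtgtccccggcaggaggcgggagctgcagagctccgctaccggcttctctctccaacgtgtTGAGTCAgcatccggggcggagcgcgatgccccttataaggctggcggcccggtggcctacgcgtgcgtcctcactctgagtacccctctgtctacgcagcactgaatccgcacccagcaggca
Gstp2 promoter: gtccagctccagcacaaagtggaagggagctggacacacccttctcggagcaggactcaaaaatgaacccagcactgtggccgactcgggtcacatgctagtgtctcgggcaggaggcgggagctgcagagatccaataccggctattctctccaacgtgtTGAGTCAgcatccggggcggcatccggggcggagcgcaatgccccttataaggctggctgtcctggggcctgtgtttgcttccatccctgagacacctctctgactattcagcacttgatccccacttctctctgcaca

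The motif began 74 bases before the start site of Gstp1 and 89 bases before that of Gstp2. On either strand it was found at 2 of the 9 members with a promoter entry, and in 5.2% of all 32851 RefSeq promoters of the same length. It was added after the sequences had been read. The core of the antioxidant response element, TGACNNNGC, was found on either strand at 1 of the 9, Gsta3, against 12.4% of all promoters, and the STAT motif TTCNNNGAA at 0 of the 9, against 8.3%. These letter matches are descriptions and do not overlap each other in the members.

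Among the other members, read sharing touched Gsta2 and Gstt3. For Gsta2, 29.49% of the windows also occurred in Gsta1, Gm3776 or Gm10639, and for Gstt3 22.84% occurred in another GENCODE gene model. Gstm3 shared 0.0788% of its windows, with Gstm6, and the remaining 5 members had none that occurred in another gene. Read pairs that mapped to several places were not counted, so the levels of Gstp1, Gstp2 and Gsta2 are uncertain to that extent. The position of the model that shares windows with Gstt3 was not compared with that of Gstt3, and no other counted gene overlaps Gstt3. If the model lies elsewhere, the level of Gstt3 is uncertain in the same way. Reads of C3 mice were aligned to a reference made from the B6 background.

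Levels were compared between genes in TPM, the deposited transcript scale, which corrects for length. Gsta3 was the most abundant of the 10, with a mean of 2036 TPM over the 20 livers, and it was the highest member in 18 of them. Gstm1 followed with 1396 TPM, below Gsta3 in all 20 livers. Gstp1 had a mean of 730.4 TPM but ranged from 86.8 TPM in a C3 female to 2411 TPM in a B6 male, and it was the highest member in the other 2 livers, 1 male of each strain. Its place depended on sex: it was above Gstt1 (mean 397 TPM) in all 10 males and below it in all 10 females, and by group means it was 3rd of the 10 in B6 M, 2nd in C3 M and 5th in both groups of females. Gstm2 (139.8 TPM) and Gsta4 (136.1 TPM) had similar means over all livers but split by strain, with Gstm2 the higher in all 10 B6 livers and Gsta4 in all 10 C3 livers. Gstm3 (73.2 TPM) and Gstt3 (71.4 TPM) split by sex, with Gstt3 the higher in all 10 females and Gstm3 in 9 of 10 males. Gsta2 (37.3 TPM) was below Gstt3 in 15 of the 20 livers, but above it in 4 of 5 C3 males. Gstp2 (2.52 TPM) was the lowest member in every liver.

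The summed TPM of the 10 genes was 5091 ± 458 in B6 F, 6595 ± 802 in B6 M, 3610 ± 514 in C3 F and 4782 ± 578 in C3 M (mean ± SD, n = 5 each). Gsta3 made up between 34.8% and 44.2% of the sum on average in the 4 groups, and Gstm1 between 24.0% and 34.5%. The share of Gstp1 moved with sex. It was 3.35% ± 1.51 in B6 F and 3.78% ± 1.20 in C3 F, but 19.3% ± 10.3 in B6 M and 27.1% ± 8.52 in C3 M (SD, n = 5). These sums are descriptions, with no test.

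**Figure D1:**
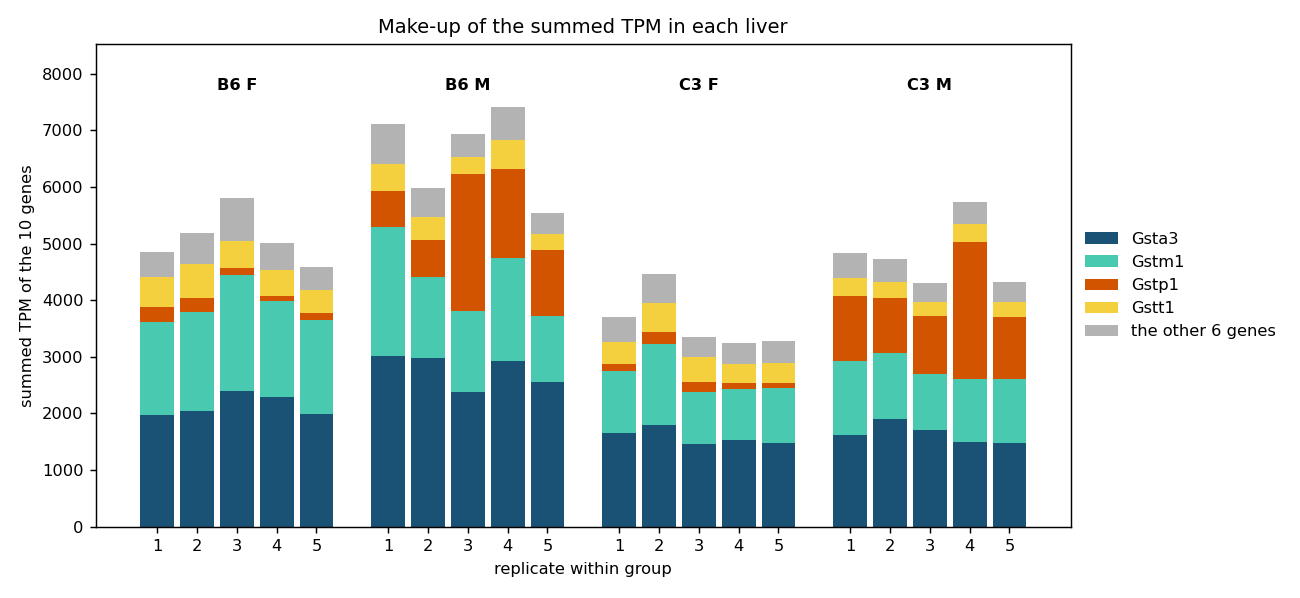
Stacked bars give the TPM of Gsta3, Gstm1, Gstp1, Gstt1 and the other 6 genes in each of the 20 livers (x axis: replicate within group; y axis: summed TPM). The Gstp1 segment averages 3.35% and 3.78% of the sum in B6 and C3 females and 19.3% and 27.1% in males.

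The first comparison asked how females and males differed within a strain. A gene was called when edgeR's quasi-likelihood test gave a Benjamini-Hochberg adjusted p under 0.001 over all 13704 genes and the log2 fold change exceeded 0.5 in size. In B6, 2 of the 10 members were called, Gstp1 and Gstp2, both lower in females, where 6.34% of all genes tested were called, 3.23% higher and 3.12% lower in females. In C3, 4 were called, with Gstp1, Gstp2 and Gsta2 lower and Gstt3 higher in females, where 6.9% of all genes were called, 2.79% lower and 4.11% higher in females. The 5 livers of one sex did not overlap those of the other in 2 members in B6 and 5 in C3, beside 10.9% and 13.1% of all genes. At an adjusted p under 0.05 with no fold threshold, 5 members passed in each strain, beside 34.6% of all genes in B6 and 40% in C3. The median log2 fold change of the 10 was −0.32 in B6 and −0.16 in C3, beside 0.0018 and 0.015 over all genes. No mu member was called between the sexes in either strain.

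The largest difference was in Gstp1, the abundant pi enzyme, which also binds and restrains stress kinases. Levels from here on are CPM scaled with the TMM library sizes. Gstp1 was at 83.9, 78.8, 46.7, 32.5 and 40.4 CPM in the 5 B6 females (replicates 1 to 5), and at 236, 238, 884, 547 and 431 CPM in the 5 B6 males. In C3 the 5 females had 39.2, 72.8, 61.5, 37.7 and 30.6 CPM, and the 5 males 438, 374, 396, 921 and 412 CPM. Every male was above every female in both strains. Females were 8.08-fold lower than males in B6 (log2 fold change −3.01, SE 0.17, adjusted p = 2.6e-10) and 11.97-fold lower in C3 (−3.58, SE 0.18, adjusted p = 3.3e-11) by edgeR's quasi-likelihood test with n = 5 per group.

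Gstp1 also moved with the sequencing pool. Over all groups it was 2.11-fold higher in pool 3 than in the mean of pools 1 and 2 (log2 1.08, SE 0.12, adjusted p = 3.2e-07 by edgeR), where 8.34% of all genes were called higher and 6.28% lower, and the highest liver of each group was from pool 3. Short genes were more often higher in that pool. In 5 bins by length of genes with a mean count of 100 or more, 21.7% of the shortest were called higher and 1.44% of the longest. Gstp1 was the shortest of the 10, at 0.247 of the median length implied by the tables. Every other member except Gstt3 (0.623) was also under 0.560, the upper limit of the shortest bin, and of these only Gstp2 was called higher in pool 3. The part of length in the level of Gstp1 was not tested. The sex difference was present inside each pool, with B6 males 9.18-fold, 5.04-fold and 8.80-fold above females in pools 1, 2 and 3, and C3 males 11.3-fold, 10.8-fold and 13.7-fold above, from 1 or 2 livers on each side. Without the 7 livers of pool 3 it was −2.92 in B6 and −3.50 in C3 on the log2 scale, and both were called. Genes of cholangiocytes, another liver cell type that holds pi-class enzyme, had summed levels of 49.0 to 80.0 CPM over the 20 livers in all 4 groups. Of 7 tested, 1 was called lower in females of each strain. At an adjusted p under 0.05 in edgeR, 2 of the 7 were higher in C3 females and 0 in B6 females, with 1 lower in each strain. The median log2 fold change of the 7 was 0.01 in B6 and 0.37 in C3. Of the 8 erythroid markers, 2 were tested and 1 was called lower in females of each strain, Alas2 of heme synthesis, named after its values were seen, at 24.6 against 165 CPM in B6 and 21.8 against 214 CPM in C3. The globin genes were at 0. Reads without a unique position or a unique gene were left out of the counts, so this 0 does not show that globin RNA was absent. The part of cholangiocytes and erythroid cells in the level of Gstp1 was not tested.

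Gstp2, the neighbouring pi gene, moved the same way at a far lower level. It was at 0.806, 1.11, 0.539, 0.217 and 0.218 CPM in B6 females and at 1.09, 1.32, 3.43, 2.07 and 2.21 CPM in B6 males. In C3 it was at 0.264, 0.266, 0.470, 0.150 and 0.0900 CPM in females and at 0.696, 0.605, 0.569, 1.78 and 0.535 CPM in males. The groups did not overlap in C3 and overlapped in B6, where the highest female, from pool 3, was just above the lowest male. The log2 fold change was −1.90 (SE 0.28, adjusted p = 4.4e-05) in B6 and −1.99 (SE 0.34, adjusted p = 2.5e-04) in C3 by edgeR.

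The Gstp2 values rest on few reads, between 3 and 140 counts per liver, and 3 counts is the least taken as detectable here. They came to between 0.54% and 1.4% of the Gstp1 count in B6 females and 0.379% to 0.553% in B6 males, and to 0.295% to 0.764% in C3 females and 0.13% to 0.193% in C3 males. Reads of Gstp1 that were placed on its near-copy were not tested as a part of this signal. Gstp2 was also higher in pool 3 (2.32-fold, adjusted p = 9.1e-05 by edgeR), and without that pool it was not called in either strain (−2.29 with adjusted p = 0.0022 in B6 and −1.83 with adjusted p = 0.015 in C3). Without C3 M replicate 4, the call in C3 was lost as well (−1.81, adjusted p = 0.0029 by edgeR). Summing the counts of both pi genes gave −3.01 in B6 and −3.58 in C3, the values of Gstp1 alone.

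In the alpha class, Gsta2 was lower in females of C3. Gsta2 is an enzyme with peroxidase activity that is known to be inducible by xenobiotics. It was at 2.28, 8.82, 2.78, 1.20 and 2.43 CPM in C3 females and at 21.9, 10.2, 9.74, 24.1 and 13.0 CPM in C3 males, with no overlap. In B6 the females had 10.8, 23.1, 39.5, 7.56 and 11.0 CPM and the males 35.1, 17.5, 15.9, 35.9 and 13.8 CPM, which overlapped. The log2 fold change of C3 females against males was −2.17 (SE 0.40, adjusted p = 4.4e-04) and that of B6 females −0.45 (SE 0.35, adjusted p = 0.34; 95% interval −1.18 to 0.28) by edgeR. The C3 call depended on single livers: leaving out any of 7 of the 20 in turn (C3 F replicates 1, 3, 4 and 5, C3 M replicates 2, 3 and 4) took the adjusted p above the threshold, up to 0.0031, while the log2 fold change stayed between −2.70 and −1.91.

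Gsta3, the most abundant member, was at 1403, 1449, 1795, 1729 and 1424 CPM in B6 females and at 2389, 2383, 1882, 2215 and 2047 CPM in B6 males. All 5 males were above all 5 females. The log2 fold change was −0.49 (SE 0.09, adjusted p = 3.3e-04 by edgeR), which passed the p threshold and fell short of the fold threshold. It exceeded the fold threshold, and was called, when any of B6 F replicate 3 or 4 or B6 M replicate 3 or 5 was left out (log2 −0.55 to −0.52). In C3, females had 1269, 1325, 1087, 1239 and 1133 CPM and males 1353, 1560.4, 1439, 1243 and 1213 CPM, with a log2 fold change of −0.14 (SE 0.09, adjusted p = 0.21). Gsta4 ranged from 32.7 to 82.1 CPM over the 20 livers with log2 fold changes of −0.19 in B6 and 0.07 in C3 and was called in neither.

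Gstt3, a theta enzyme, was the 1 member called higher in females. It was at 81.2, 118, 69.98, 51.7 and 57.8 CPM in C3 females and at 31.6, 23.2, 19.9, 35.0 and 20.4 CPM in C3 males, with no overlap. Females were 2.85-fold higher (log2 1.51, SE 0.23, adjusted p = 9.1e-05 by edgeR), and inside pools 1, 2 and 3 they were 2.54-fold, 3.13-fold and 2.68-fold higher. In B6 the females had 95.6, 116, 115, 72.5 and 61.2 CPM and the males 83.9, 58.8, 35.4, 84.3 and 28.1 CPM, which overlapped, with a log2 fold change of 0.66 (SE 0.22, adjusted p = 0.0298) that was not called. Its neighbour Gstt1 was at 173 to 242 CPM in C3 females and 138 to 171 CPM in C3 males. These did not overlap, but the log2 fold change of 0.36 (SE 0.12, adjusted p = 0.022 by edgeR) was short of both thresholds.

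Gstm1 and Gstm2 of the mu class were close between the sexes. Gstm1 had log2 fold changes of 0.01 in B6 (95% interval −0.23 to 0.26) and −0.18 in C3 (−0.44 to 0.07). Gstm2 had −0.08 in B6 (−0.30 to 0.15) and 0.08 in C3 (−0.15 to 0.31). Gstm3 was lower in females by 0.45 on the log2 scale in B6 (SE 0.17, adjusted p = 0.049) and by 0.41 in C3 (SE 0.18, adjusted p = 0.071 by edgeR), without a call. The intervals of Gstm1 and Gstm2 in these comparisons lie inside the fold threshold on either side.

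**Figure D2:**
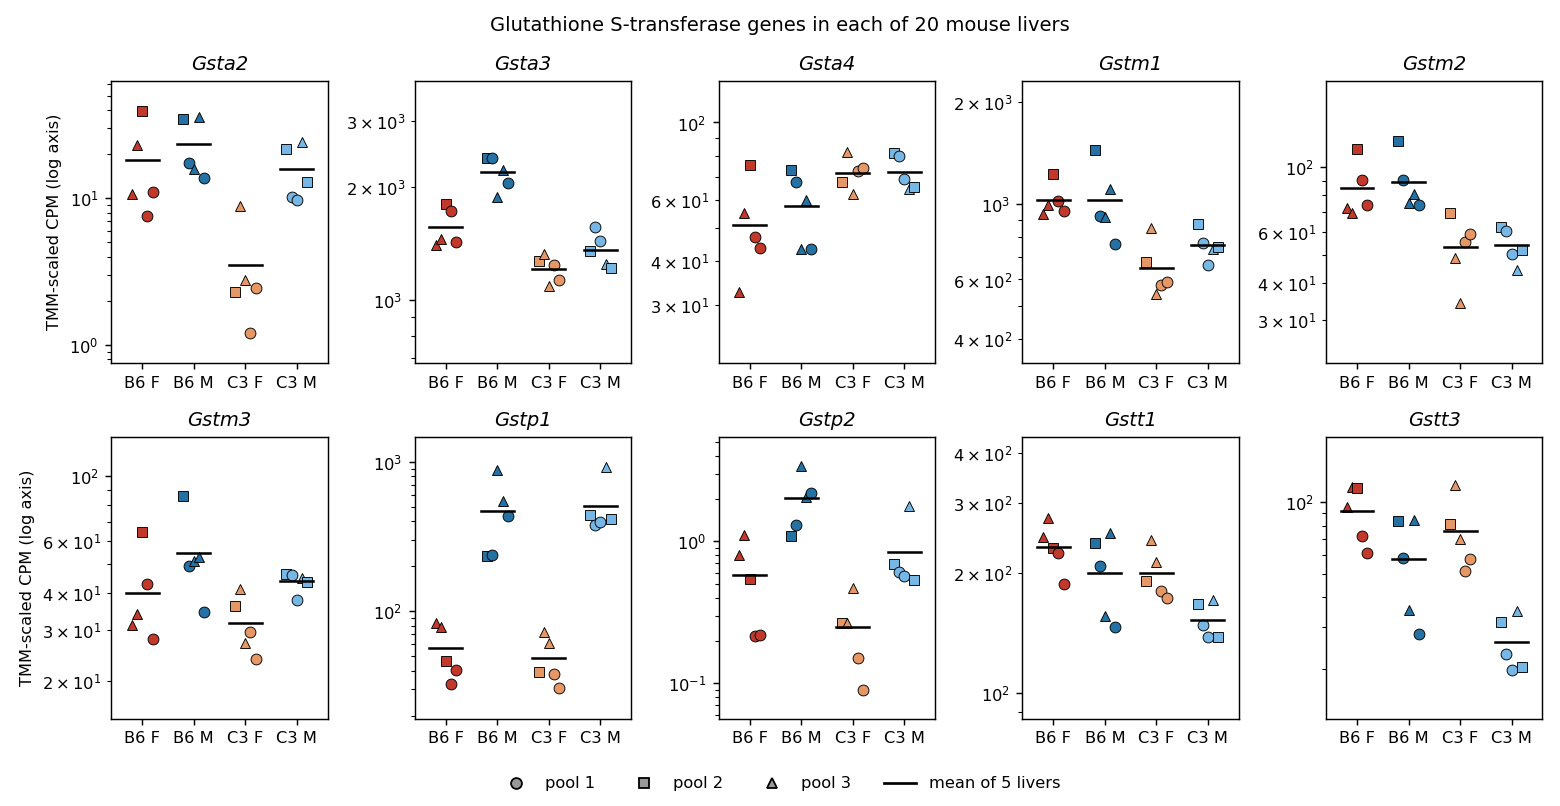
Each panel gives 1 gene (y axis: TMM-scaled CPM, log axis), each point 1 liver and each line the mean of 5, with the marker shape for the sequencing pool and the groups on the x axis. The males of both strains lie above all females for Gstp1, and the C3 females lie below the C3 males for Gsta2 and above them for Gstt3.

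The second comparison set C3 against B6 within a sex. No member was called higher in C3 in either sex. In females, 3 members were called lower in C3, Gsta2, Gstm1 and Gstm2, where 9.4% of all genes were called, 4.63% higher and 4.77% lower in C3. In males, 3 were called lower in C3, Gsta3, Gstm2 and Gstt3, where 9.64% of all genes were called, 4.09% higher and 5.55% lower. At an adjusted p under 0.05 alone, 6 members passed in each sex, beside 32.9% of all genes in females and 34.5% in males. The median log2 fold change of the 10 was −0.33 in females and −0.54 in males, beside 0.019 and 0.015 over all genes. The strains did not overlap in 2 members in each sex, beside 12.8% of all genes in females and 15.1% in males. These comparisons share their livers with the sex comparisons.

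Mu enzymes conjugate epoxides and quinones, and 1 of the mu genes was called in both sexes. Gstm2 was at 69.8, 48.9, 34.1, 55.4 and 59.1 CPM in C3 females and at 72.7, 69.4, 116, 90.5 and 74.1 CPM in B6 females, with the highest C3 female just above the lowest B6 female. It was at 62.6, 60.5, 50.3, 44.5 and 52.2 CPM in C3 males and at 123, 90.4, 75.3, 80.8 and 74.4 CPM in B6 males, with no overlap. The log2 fold change was −0.67 (SE 0.11, adjusted p = 1.0e-04) in females and −0.82 (SE 0.11, adjusted p = 1.1e-05) in males by edgeR. Gstm2 was lower in pool 3 by 0.44 on the log2 scale (adjusted p = 1.9e-04), and C3 was below B6 by 1.44-fold to 1.71-fold inside the 3 pools in females and by 1.49-fold to 2.15-fold in males. Without pool 3 the log2 fold change in females was −0.61 with an adjusted p of 0.0091 by edgeR and was no longer called, and that in males was −0.78 and still called.

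Gstm1, the most abundant mu gene, was at 675, 850.4, 544, 577 and 589 CPM in C3 females and at 938, 996, 1230.1, 1024 and 953 CPM in B6 females. All 5 C3 females were below all 5 B6 females. The log2 fold change was −0.66 (SE 0.12, adjusted p = 2.4e-04 by edgeR), and it was lost as a call without C3 F replicate 1 (−0.61, adjusted p = 0.0013) and without pool 3 (−0.80, adjusted p = 0.0011). In males the ranges were 662 to 873 CPM in C3 and 763 to 1441 CPM in B6, with a log2 fold change of −0.47 (SE 0.12, adjusted p = 0.0052) that was not called. Gstm3 had log2 fold changes of −0.31 in females and −0.35 in males, and neither was called.

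Of the alpha genes, Gsta2 was 5.00-fold lower in C3 than in B6 females (log2 −2.32, SE 0.39, adjusted p = 1.5e-04 by edgeR), with the values given above. The call was lost without the pool term (adjusted p = 0.0026) and with only the females in the fit (adjusted p = 0.0040), with the log2 fold change at −2.37 and −2.31. The highest C3 female, at 8.82 CPM, was the only one above the lowest B6 female, at 7.56 CPM. In males the log2 fold change was −0.61 (SE 0.35, adjusted p = 0.20; 95% interval −1.35 to 0.14), without a call. Gsta3 showed the reverse order of sizes. It was 1.63-fold lower in C3 than in B6 males (log2 −0.71, SE 0.09, adjusted p = 4.5e-06 by edgeR), with all 5 C3 males below all 5 B6 males. In females it was lower by 0.36 on the log2 scale (SE 0.09, adjusted p = 0.0033 by edgeR), again with no overlap but under both thresholds. Gsta4 was the only member with a higher mean in C3 of both sexes and a log2 fold change over 0.5 in one of them, 0.53 in females (SE 0.16, adjusted p = 0.018 by edgeR). It was not called.

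In the theta class, Gstt3 was 2.19-fold lower in C3 than in B6 males (log2 −1.13, SE 0.23, adjusted p = 8.7e-04 by edgeR), with overlapping groups. This adjusted p was close to the threshold: the call was lost in 17 of the 20 fits that left out 1 liver, with an adjusted p of up to 0.0063 without B6 M replicate 1, while the log2 fold change stayed between −1.29 and −0.99. In females the log2 fold change of Gstt3 was −0.28 (95% interval −0.75 to 0.19). Gstt1 had −0.22 in females and −0.37 in males (adjusted p = 0.021 by edgeR), without a call.

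The pi genes were not called between the strains by edgeR. Gstp1 had log2 fold changes of −0.20 in females (95% interval −0.54 to 0.14) and 0.37 in males (0.03 to 0.71, adjusted p = 0.087 by edgeR). Gstp2 had −1.18 in females (SE 0.35, adjusted p = 0.013) and −1.10 in males (SE 0.27, adjusted p = 0.0043 by edgeR), short of the p threshold. With limma on log2(TPM + 1), Gstp2 was called lower in C3 males (−0.89, adjusted p = 9.1e-04). So C3 males had the higher mean of Gstp1 and the lower mean of Gstp2.

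Markers of liver zones and cell types were set beside the strain comparisons. At the call thresholds 4.77% of all genes were lower in C3 females and 5.55% in C3 males. Of 10 genes that mark hepatocytes around the central vein, 6 were called lower in C3 females and 5 in C3 males, and none higher. Their summed level was 6444 to 8747 CPM in C3 F, 10552 to 14460 CPM in B6 F, 8151 to 11865 CPM in C3 M and 9749 to 14013 CPM in B6 M, and none of the 10 was at 0. Of 10 genes of the portal zone, 1 was called lower in C3 females and 2 in C3 males. Their median log2 fold change was −0.18 in females and 0.07 in males. The portal sums of the strains overlapped, at 9340 to 15016 CPM in C3 F and 10486 to 15582 CPM in B6 F. In males they were 11197 to 14789 CPM in C3 M and 12171 to 14424 CPM in B6 M. Of 10 Kupffer cell genes, 7 were called lower in C3 females and 4 in C3 males, with summed levels of 374 to 551 CPM in C3 F, 576 to 719 CPM in B6 F, 264 to 397 CPM in C3 M and 365 to 547 CPM in B6 M. Of 9 lymphocyte genes, 9 were lower in C3 males at an adjusted p under 0.05 and 3 in C3 females, of which 1 and 0 were called, with sums of 9.53 to 11.9 CPM in C3 M and 16.2 to 27.2 CPM in B6 M. Of 10 endothelial genes 5 and 4, and of 10 stellate cell genes 5 and 6, were lower in C3 females and males at that adjusted p, and 1 of each list was higher in each sex. Over all genes, 32.9% in females and 34.5% in males met that adjusted p in either direction. The median log2 fold change was −0.14 in females and 0.016 in males for the endothelial genes, and −0.34 and −0.22 for the stellate cell genes.

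Markers of these cells also moved between the sexes. At an adjusted p under 0.05 in edgeR, which 34.6% of all genes met in B6 and 40% in C3, 9 of 10 Kupffer cell genes were higher in females in B6 and 6 in C3, 2 and 8 of 9 lymphocyte genes, 9 and 8 of 10 endothelial genes, and 7 and 6 of 10 stellate cell genes, and none of these was lower. At the call thresholds they were 1 and 1, 0 and 1, 0 and 0, and 0 and 0. In B6 the summed levels of females and males did not overlap for any of these lists. The endothelial sums were 536 to 657 CPM in B6 F and 438 to 512 CPM in B6 M. In C3 only the lymphocyte sums of these lists did not overlap, at 15.9 to 27.4 CPM in C3 F and 9.53 to 11.9 CPM in C3 M. The part of any of these in the levels of the GST genes was not tested.

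**Figure D3:**
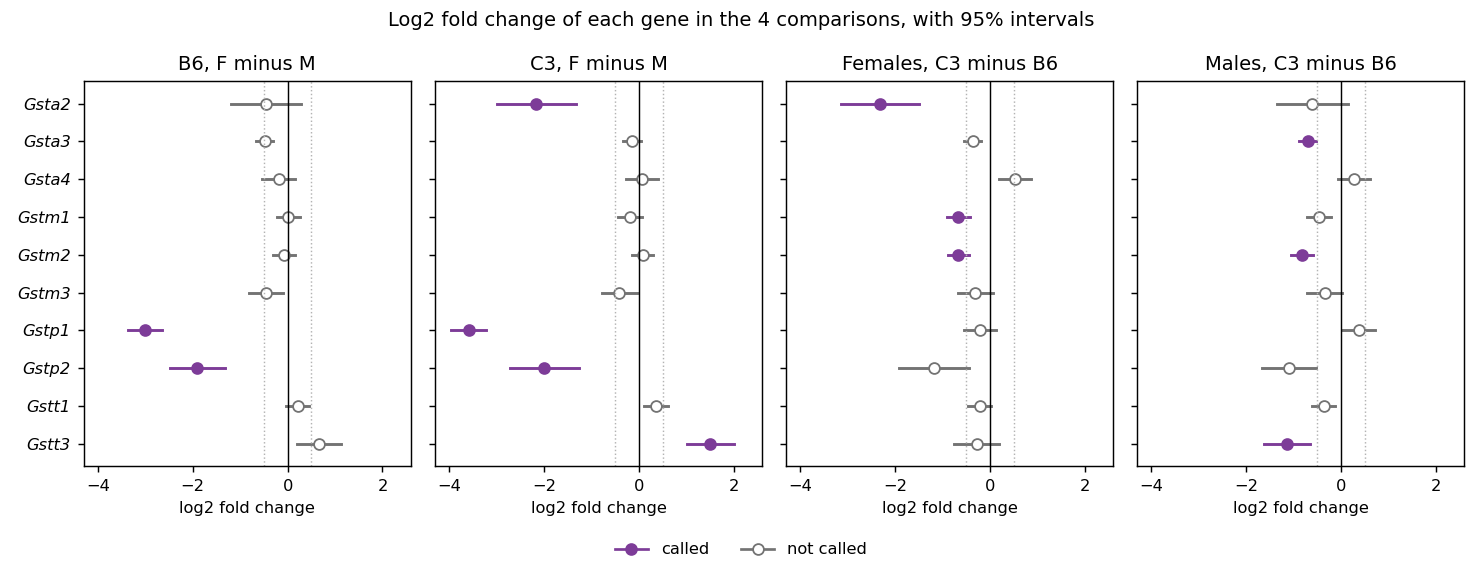
Points give the log2 fold change of each gene and bars its 95% interval (x axis) in the 4 comparisons, with filled points for called genes and dotted lines at the fold threshold of 0.5. Gstp1 and Gstp2 are called in both sex comparisons, and every called point in the strain comparisons lies on the side lower in C3.

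Whether the sex difference itself differed between the strains was tested with the interaction of sex and strain. No member was called by edgeR's quasi-likelihood test or by DESeq2, where 0.401% of all genes were called by edgeR, and none had an adjusted p under 0.05 by either tool, where 2.96% of all genes did by edgeR. At an unadjusted p under 0.05 there were 4 members, Gsta2, Gsta3, Gstp1 and Gstt3. Gsta2 had the largest estimate: the log2 ratio of females to males was lower in C3 than in B6 by 1.72 (SE 0.53, adjusted p = 0.093 by edgeR). For Gstt3 it was higher in C3 by 0.85 (SE 0.32, adjusted p = 0.18) and for Gstp1 lower by 0.57 (SE 0.23, adjusted p = 0.22). Some of these values moved with the fit: without C3 F replicate 2 the estimate for Gsta2 was −2.25 with an adjusted p of 0.0108, without B6 M replicate 3 that for Gstt3 was 1.01 with 0.0486, and with the replicate block that for Gsta3 was 0.37 with 0.0352, all by edgeR and none a call. A call in C3 alone is therefore not shown here to be particular to C3.

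The rest of the superfamily was read from a fixed list of 19 other GST and microsomal GST genes, of which 15 were tested. In B6, 1 was called higher in females and 1 lower, and in C3 1 higher and 2 lower. These were 13.3% and 20% of the 15, beside 6.34% and 6.9% of all genes. Mgst1, a microsomal enzyme, was lower in females of both strains: 1960.0 against 3203 CPM in B6 (log2 −0.71, SE 0.07, adjusted p = 5.8e-07 by edgeR) and 1646 against 2483 CPM in C3 (−0.65, SE 0.07, adjusted p = 2.0e-06). Gstt2, another theta gene, was higher in B6 females (log2 0.55, adjusted p = 1.5e-04 by edgeR). In C3, Mgst3 was higher in females (1.02, adjusted p = 5.1e-04) and Gstm6, the gene next to Gstm3, lower (−0.72, adjusted p = 9.6e-05 by edgeR).

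Between the strains, Gsto2 of the omega class was higher in C3 of both sexes (log2 1.87 in females and 2.37 in males), at mean levels under 1 CPM in every group. Gstm5 was higher in C3 females (0.58, adjusted p = 1.4e-05 by edgeR), and Gstm6 was lower (−0.80, adjusted p = 1.5e-05). In males Gstk1, the mitochondrial and peroxisomal kappa enzyme, was lower in C3 (−0.54, adjusted p = 4.9e-05 by edgeR). Gsta1, the alpha gene that lies beyond Gsta4 and shares windows with Gsta2, had a mean of 0.0269 CPM in C3 F, under the level of 3 counts per library, against 0.513 CPM in B6 F, and it was not called in any comparison. Gstm4, the gene next to Gstm1, had log2 fold changes of −0.49 in B6 and 0.10 in C3 between the sexes and was not called. Gstt4, next to Gstt1, did not pass the filter on low counts.

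Genes that make, recycle and use glutathione were read from another fixed list. Of 23 tested, 1 (4.35%) was called in B6 between the sexes, 3 (13%) in C3, 2 (8.7%) between females and 2 (8.7%) between males. Over all genes these shares were 6.34%, 6.9%, 9.4% and 9.64%. Glrx5, a mitochondrial glutaredoxin, was lower in B6 females than males (−0.62, adjusted p = 1.2e-06 by edgeR). In C3 females Ggct, of glutathione breakdown, was higher (0.54) and Lap3, leucine aminopeptidase, lower (−0.58) than in males. Glrx, glutaredoxin, was higher in C3 by 0.70 in females and 1.13 in males on the log2 scale (adjusted p = 5.6e-08 and 9.3e-11 by edgeR). Gss, the second enzyme of glutathione synthesis, was higher in C3 males (0.50, adjusted p = 1.8e-04), and Dpep1, a dipeptidase of glutathione breakdown, was higher in C3 females than in C3 males (2.19) or B6 females (2.18).

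Of 20 genes of the oxidative stress and xenobiotic response, 8 were called between the sexes in B6 (3 higher and 5 lower in females) and 7 in C3 (4 higher and 3 lower). These were 40% and 35% of the 20, beside 6.34% and 6.9% of all genes. Between the strains 15% were called in females and 25% in males, beside 9.4% and 9.64% of all genes. Nqo1, the quinone reductase, was higher in females by 0.90 in B6 and 1.53 in C3 on the log2 scale, and Abcc4, an export pump, by 0.72 and 1.29. Aox1, aldehyde oxidase, had log2 fold changes of −1.03 in B6 and −1.31 in C3, Me1, malic enzyme, had −1.10 in B6, and Ugdh, which makes UDP-glucuronic acid, had −1.16 in C3. Between females of the strains, 1 was called higher in C3 (Pgd, of the pentose phosphate pathway, 0.60) and 2 lower (Aox1, −1.03, and Ephx1, microsomal epoxide hydrolase, −0.66). In males, 5 were called lower in C3 and none higher, with Nqo1 at −1.21, Abcc4 at −0.81, Aox1 at −0.75 and Srxn1, sulfiredoxin, at −0.57.

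Of 23 regulators, 4 were called between the sexes in B6 and 2 in C3, and none between the strains. The sex calls were 17.4% and 8.7% of the 23, beside 6.34% and 6.9% of all genes. Between the strains 9.4% of all genes were called in females and 9.64% in males. Cux2, a female-specific factor of liver, was at 12.6 CPM in B6 F against 0.258 CPM in B6 M and at 23.8 against 0.289 CPM in C3. Bcl6, a repressor linked to the male pattern of growth hormone, was lower in B6 females (10.5 against 53.5 CPM, log2 −2.44, adjusted p = 7.1e-04 by edgeR). Esr1, the estrogen receptor, was higher in females by 1.39 in B6 and 1.01 in C3.

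Livers of the same group also differed from each other, and the GST genes varied by different amounts. The coefficient of variation within groups was between 8.1% and 11.96% for Gsta3 in the 4 groups and between 42.7% and 86.5% for Gsta2. Gstp1 had 37.0% to 57.4%, Gstp2 45.5% to 66.7% and Gstt3 26.4% to 45.3%.

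To see which genes varied together, the log2 CPM of each gene was taken as its deviation from the group mean over the 20 livers and all 45 pairs were correlated. Pairs of genes outside the members were not correlated, so no share over all genes stands beside the counts of pairs. The counts are therefore not shown to be particular to the GST genes. At an adjusted p under 0.05 (two-sided permutation test, 100000 resamples within groups, Benjamini-Hochberg over the 45 pairs), 20 pairs correlated positively and 1 negatively. The closest pair was Gstt1 and Gstt3, the theta neighbours, with Pearson's r of 0.941 (permutation p = 2e-05, adjusted p = 3.0e-04) and Spearman's rho of 0.943 (permutation p = 3e-05, adjusted p = 4.5e-04). Without the 2 livers farthest from the median of Gstt1 it was 0.916, with the pool removed as well 0.934, and inside pools 1 and 3 it was 0.938 and 0.962. Pool 2, with 5 livers, was too small for a value.

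Gstm1 and Gstm3, genes of the mu cluster, had r = 0.872 (rho = 0.842, both with the permutation p of 1e-05 that is the smallest the resamples can give, adjusted p = 3.0e-04 and 4.5e-04), and 0.817 without the 2 farthest livers of Gstm1. With the pool removed it was 0.786. Correlations were not limited to neighbours. Gsta2, on chromosome 9, and Gstt3, on chromosome 10, had r = 0.816 (rho = 0.818, permutation p = 2e-05 and 2.0e-04, adjusted p = 3.0e-04 and 0.00225), which was 0.813 without the 2 farthest livers of Gsta2, 0.677 with the pool removed, 0.302 inside pool 1 and 0.88 inside pool 3.

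Between alpha, mu and theta genes every r was above 0, from 0.0579 to 0.941 with group means removed and from 0.346 to 0.934 with the pool removed as well. This did not hold in every view: 3 of these 28 pairs were negative without the 2 farthest livers, the lowest at −0.145, and 3 inside pool 1, the lowest at −0.423, both for Gsta2 and Gsta3, while inside pool 3 all lay between 0.369 and 0.962. Between these and a pi gene r ran from −0.64 to 0.337 with group means removed and from −0.789 to −0.134 with the pool removed as well. Gstp1 and Gstp2 correlated with each other (r = 0.885, rho = 0.901, permutation p = 3e-05 and 2e-05, adjusted p = 3.4e-04 and 4.5e-04; 0.854 without the 2 farthest livers), but with the pool removed r was 0.60 with an adjusted p of 0.060 by permutation, and inside pools 1 and 3 it was 0.90 and 0.348. The 1 negative pair was Gstm2 and Gstp1 (r = −0.64, rho = −0.66, permutation p = 0.00436 and 0.00426, adjusted p = 0.0155 and 0.0198; −0.618 without the 2 farthest livers), which was −0.202 with the pool removed. With the pool removed, 28 of the 45 pairs passed, 26 positive and 2 negative, and 18 pairs passed both ways.

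**Figure D4:**
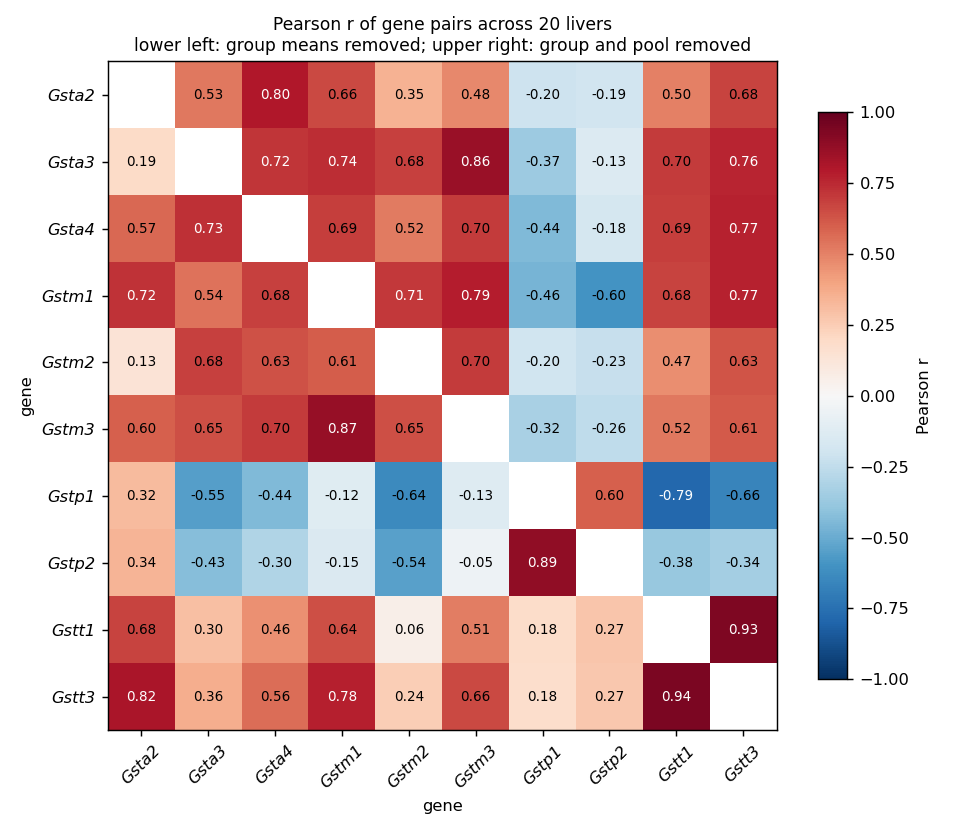
Cells give Pearson's r of each pair of genes (both axes) across 20 livers, below the diagonal with group means removed and above it with group and pool removed. The alpha, mu and theta genes are positive with each other in every cell, up to 0.941 for Gstt1 and Gstt3, while Gstp1 and Gstp2 are negative with all of them above the diagonal and have both signs below it.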

How the data were processed

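Liver RNA of 20 mice was sequenced as stranded, ribosome-depleted, paired 125-base reads in 3 pools. Per the labels and the study's methods, the authors trimmed with cutadapt 1.9.1, aligned to mm9 with STAR 2.5.1b, and counted RefSeq genes with featureCounts (Subread 1.5.0-p1), without pairs mapping to several places. They deposited a table of raw counts and a table of TPM, whose length definition is not given in the sources used here. The headers of the symbol and ID columns were exchanged and were read by content. Each library was 1 mouse.

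Genes passing edgeR's filterByExpr were fitted with TMM scaling and the quasi-likelihood test (R 4.3.3, edgeR 4.0.16) over all 20 libraries with group and pool as terms. A gene was called at a Benjamini-Hochberg adjusted p under 0.001 over the 13704 genes and a log2 fold change over 0.5. SE is the size of the log2 fold change divided by the square root of its F. Counting error is small at 27370921 to 46835745 counts per library except for Gstp2 and, less so, for Gsta2 in C3 females (40 to 398 counts). The level of 3 counts corresponds to 0.0641 to 0.110 CPM. Replicates of a group differed by more than sampling noise (chi-square per degree of freedom 20 to 187). Correlations used permutation within groups (Python 3.11.15, numpy 2.4.6, scipy 1.17.1). Transcripts came from GENCODE M1 (mm9), promoters from RefSeq (GRCm38.p6, 9 of 10 genes matched), aligned with Biopython 1.88. Alternatives used DESeq2 1.42.0, limma 3.58.1 on log2(TPM + 1) and log2(TPM + 0.1), other scalings, filters, designs and single libraries left out. On simulated counts for B6 females against males (13704 genes), 147 of 200 genes changed by 1 on the log2 scale were called, with 1 false call.

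All 10 members are named. From each other list at most 4 called genes per comparison, those with the largest change, and the list genes lying next to a member are named. A result that this rule would name is not reported here. The members and lists were chosen with earlier results of these data known.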

Additional observations from a re-analysis of the deposited data

Results flagged for a closer look

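In 3 of the 40 gene and group combinations of 5 livers, 1 liver lay far above the others by Dixon's criterion. Chance gives this in about 1 of 20 groups with no pool effect, and the values were not adjusted for pool. The flags came from 2 livers, both of pool 3, and C3 M replicate 4 was the only liver of its group in that pool. Over all groups, Gstp1 was 2.11-fold and Gstp2 2.32-fold higher in pool 3. The part of the pool in these flags was not tested. Gsta2 in C3 F replicate 2 was at 8.82 CPM with the next liver at 2.78 CPM, a gap of 0.793 of the range, and without it the difference of C3 females from C3 males was −2.70 and that from B6 females −2.88 on the log2 scale. Gstp1 in C3 M replicate 4 was at 921 CPM with the next at 438 CPM, a gap of 0.884 of the range, and without it the sex difference in C3 was −3.55. Gstp2 in the same liver was at 1.78 CPM with the next at 0.696 CPM, a gap of 0.871 of the range, and without it the sex difference in C3 was −1.81 with an adjusted p of 0.0029 by edgeR's quasi-likelihood test, which is no longer a call.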

How the results depend on the processing

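The number of members called stayed within 1.5 times of 2, 4, 3 and 3 (sex in B6, sex in C3, strain in females, strain in males) and at 0 for the interaction with DESeq2, with 2 other scalings, without the filter on low counts and with limma on either TPM pseudocount. Without the pool term the counts were 1, 1, 0 and 1, namely Gstp1 between the sexes and Gsta3 between males; every other call was lost, at adjusted p between 0.00127 and 0.0263. With only the 2 groups compared in the fit they were 1 for sex in B6 (Gstp1) and 1 for strain in females (Gstm2), and at an adjusted p under 0.05 with no fold threshold 5 for sex in B6, 6 for strain in females and 6 in males. Settings chosen after seeing the data gave 1 for sex in B6 (Gstp1) and 1 for strain in females (Gsta2) without pool 3, and 1 for strain in females and 1 in males at a log2 fold threshold of 1. The cause was not tested. Leaving out 1 liver gave 2 to 3, 2 to 4, 2 to 3, 2 to 3 and 0 to 0 calls, the lowest for sex in C3 without C3 M replicate 4. Gstt3 between males lost its call in 5 of 10 other settings. In one of them, limma on log2(TPM + 1), Gstp2 was called between males in its place.

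Signs turned only in differences that were not called. Without the pool term Gstm1 (sex, B6) was −0.0016, Gsta4 (sex, C3) −0.0073, Gstm2 (sex, C3) −0.015, and the interactions of Gstm3 and Gstp2 −0.018 and 0.044. With 2 groups in the fit Gsta4 (sex, C3) was −0.00081. With limma Gstm2 (sex, B6) was 0.044 with either pseudocount and the interaction of Gstp2 0.29 and 0.068. Without pool 3 Gsta4 (sex, C3) was −0.030 and the interactions of Gstm3 and Gstp2 −0.20 and 0.46. Leaving out 1 liver took Gsta4 (sex, C3) from −0.018 to 0.17, Gstm1 (sex, B6) from −0.058 to 0.12, and the interactions of Gstm3 from −0.089 to 0.16 and Gstp2 from −0.34 to 0.10. Removing the pool moved the pairs that correlated from 21 to 28 and r of Gstp1 and Gstt1 from 0.182 to −0.789.

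Replicate numbers only name the mice. Same-numbered mice correlated on average between −0.24 and 0.218 in their deviations from the group means, so the numbers do not pair them, and with a replicate block the counts were 2, 4, 3, 3 and 0. Depth limits Gstp2 most among the 10, and Gsta2 in C3 females, at 40 to 398 counts, less so.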
